A study of Mus musculus with 9 samples.

Results

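The miR-30 family was followed in small RNA libraries from the fat layer of mouse milk. Its members were taken by name, 9 of the 1915 mature miRNA names in the count table: the 5p arms mmu-miR-30a-5p, mmu-miR-30b-5p, mmu-miR-30c-5p, mmu-miR-30d-5p and mmu-miR-30e-5p, and the 3p arms mmu-miR-30a-3p, mmu-miR-30d-3p, mmu-miR-30e-3p and mmu-miR-30c-2-3p, written below without the species prefix. Each library came from 1 of 9 first-litter ICR (CD1) dams, an outbred stock, and milk was taken on lactation day 10. From 4 weeks of age, through 4 weeks before mating and then pregnancy and lactation, 5 dams received control chow in which fat supplied 10% of the energy (3.85 kcal per g) and 4 dams high-fat chow in which it supplied 60% (5.24 kcal per g). Sucrose gave 7% of the energy in both. Milk fat carries cytoplasm that the secretory epithelium releases with its fat globules, and the fat was washed in saline before RNA extraction. Before mating, females on the same chow were kept in pairs, and cages were not used here as a term.

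The miR-30 family is made from 6 hairpins at 3 places in the genome. Each hairpin is cut into a duplex of a 5p and a 3p strand, and the strand that is loaded into Argonaute guides repression of transcripts that pair with its seed, bases 2 to 8 from the 5′ end. miR-30 is known as an abundant miRNA of epithelia, where it restrains mesenchymal regulators such as Snai1, and as a promoter of fat-cell differentiation through Runx2. In the mouse mammary gland, forced expression of miR-30b is known to impair lactation and to delay involution.

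Sequences are shown first because the names differ by few letters, which bears on how reads can be assigned to them. The RefSeq table (GRCm38.p6) held mature sequences for 6 of the 9 names, printed 5′ to 3′ with the seed in capitals.
miR-30a-5p: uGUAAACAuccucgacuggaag
miR-30e-5p: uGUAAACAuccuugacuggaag
miR-30c-5p: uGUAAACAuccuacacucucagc
miR-30a-3p: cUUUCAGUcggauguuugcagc
miR-30e-3p: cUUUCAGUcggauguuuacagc
miR-30c-2-3p: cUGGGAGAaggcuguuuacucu
The 3 printed 5p members share the seed GUAAACA. miR-30a-3p and miR-30e-3p share another, UUUCAGU, and miR-30c-2-3p has UGGGAGA. Counting from 1 at the 5′ end, miR-30e-5p differs from miR-30a-5p by the single substitution C13U, and miR-30e-3p from miR-30a-3p by G18A, so both strands of these hairpins differ by 1 base outside the seed. miR-30c-5p differs from miR-30a-5p at 5 of the first 22 bases, all of them at base 13 or later.

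The hairpins of miR-30c are printed with both arms in capitals because one 5p sequence comes from both of them, while the 3p sequences differ. Mir30c-2 lies at chr1:23291701-23291784 on the plus strand, in an exon of the lincRNA gene Gm27028, and Mir30c-1 at chr4:120769534-120769622 on the minus strand, in an intron of Nfyc, which encodes a subunit of the CCAAT-binding factor NF-Y (GRCm38, GENCODE M21).
Mir30c-2: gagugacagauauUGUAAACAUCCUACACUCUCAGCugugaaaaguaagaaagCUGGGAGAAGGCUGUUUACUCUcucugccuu
Mir30c-1: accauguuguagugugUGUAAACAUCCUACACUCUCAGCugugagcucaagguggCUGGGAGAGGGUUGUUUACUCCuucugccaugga
The count table listed miR-30c-5p under each hairpin with nearly equal counts (13956 and 13959 in control library 1), so these counts do not show which hairpin made it. Mir30a, at chr1:23272269-23272339 between annotated genes, lies 19361 bases from Mir30c-2. Mir30e, at chr4:120772606-120772697, is in an intron of Nfyc 2983 bases from Mir30c-1. Mir30b (chr15:68337415-68337510) and Mir30d (chr15:68341208-68341289) lie 3697 bases apart, each in an exon of a non-coding transcript.

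Libraries held 837817 counts (control 5) to 3897109 counts (high-fat 2), and 312 names passed the filter on low counts, all 9 members among them. Markers of the secretory epithelium (miR-148a-3p, the miR-200 family and miR-141-3p) made up 21.1% to 25.2% of every library, and miR-122-5p of liver at most 0.00926%. Stroma markers (miR-143-3p, miR-145a-5p and miR-199a-3p) held 1.04% to 1.92% of control libraries and 1.17% to 2.57% of high-fat libraries, with the most in high-fat library 4. Endothelium markers held at most 0.00291%. Leukocyte markers held 1.14% of high-fat library 1 (95% Wilson interval 1.13% to 1.16%) and 0.287% of high-fat library 3 (0.28% to 0.295%), against 0.00777% to 0.0762% in the other 7 libraries. High-fat library 3 also held the most of the erythrocyte markers (0.0616%) and of the striated muscle markers (0.00910%), while miR-206-3p of muscle was at 0 throughout. Fold changes and arm ratios that moved by over 1.5 times without these 2 libraries are given with and without them. The labels name each dam as a separate biological replicate. Intervals on shares cover counting error only.

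The 9 miR-30 names together held 11.5% ± 1.12 of control counts (SD, n = 5) and 11.3% ± 0.772 of high-fat counts (SD, n = 4), nearly all of it from the 5p arms. The 3p arms made up 2.73% ± 0.651 of the family's counts in control and 2.62% ± 0.377 in high-fat milk. Of the 5p counts, miR-30a-5p held 61.4% ± 2.58 and 58.0% ± 2.68, miR-30e-5p 16.2% ± 2.49 and 19.0% ± 1.84, miR-30d-5p 10.4% ± 1.15 and 10.8% ± 2.88, miR-30c-5p 8.10% ± 1.84 and 7.87% ± 1.26, and miR-30b-5p 3.94% ± 0.968 and 4.35% ± 0.714. By counts, the order miR-30a-5p, miR-30e-5p, miR-30d-5p, miR-30c-5p, miR-30b-5p held within each of the 9 libraries. In high-fat library 4 miR-30d-5p and miR-30c-5p were nearly equal, at 17220 and 17193 counts. Their Wilson intervals there, 0.890% to 0.917% and 0.889% to 0.916% of the library, overlapped, so counting error does not set them apart. Across libraries the CPM ranges of miR-30e-5p and miR-30d-5p overlapped, as did those of miR-30d-5p and miR-30c-5p, while the other neighbours in this order were apart. Fewer cells or globules that carry a miRNA and less of it in each cannot be told apart in such bulk libraries. Levels of different sequences also depend on how well the library kit captures each, which was not tested.

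The levels are given as CPM, read counts scaled to a fixed library size. miR-30a-5p, known to repress Snai1 and the autophagy gene Becn1, was number 3 of the 312 names by mean level. It measured 68756, 76180, 62346, 80460 and 56008 CPM in control libraries 1 to 5 and 61282, 70303, 54764 and 70648 CPM in high-fat libraries 1 to 4. The diets overlapped, and the lowest library of each diet was control 5 and high-fat 3. Its log2 fold change, high-fat over control, was -0.09 ± 0.13 (SE), and the 95% confidence interval ran from a fold of 0.765 to 1.15. limma-voom with Benjamini-Hochberg adjustment over the 312 names gave an adjusted p of 0.813. miR-30e-5p, from an Nfyc intron, had the widest spread of the 5p members. It measured 22440, 21854, 14569, 18861 and 13212 CPM in the control libraries and 20055, 23249, 16648 and 24573 CPM in the high-fat libraries. Control libraries 3 and 5 and high-fat library 3 were low, and the diets overlapped. Its log2 fold change of 0.23 ± 0.19 had a limma-voom adjusted p of 0.649 and an interval from 0.882-fold to 1.57-fold. With single libraries left out the log2 fold change of miR-30e-5p ran from 0.12 (without high-fat 2) to 0.34 (without high-fat 3). Without high-fat libraries 1 and 3 it was 0.43, and that of miR-30a-5p was 0.05.

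miR-30d-5p and miR-30b-5p come from the locus on chromosome 15. miR-30d-5p measured 12440, 11027, 12367, 11566 and 10329 CPM in control and 10574, 12156, 14964 and 9343 CPM in high-fat milk. Both the highest and the lowest of its 9 values were high-fat libraries, 3 and 4, and the means of the diets nearly coincided, at a log2 fold change of 0.00 ± 0.15 (fold interval 0.800 to 1.26). miR-30b-5p measured 4003, 3692, 4649, 4086 and 5081 CPM in control and 4803, 4138, 5254 and 4851 CPM in high-fat milk. Its highest value was in high-fat library 3 and the next in control library 5, the libraries that were lowest for miR-30a-5p. The log2 fold change was 0.15 ± 0.13, with a fold interval of 0.900 to 1.36, and 0.07 without high-fat libraries 1 and 3. miR-30c-5p, from 2 hairpins, measured 8035, 7485, 10046, 8977 and 9868 CPM in control and 7538, 7978, 9771 and 9328 CPM in high-fat milk, and its log2 fold change was -0.04 ± 0.14 (fold interval 0.786 to 1.20). All of these ranges overlapped between the diets.

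**Figure D1:**
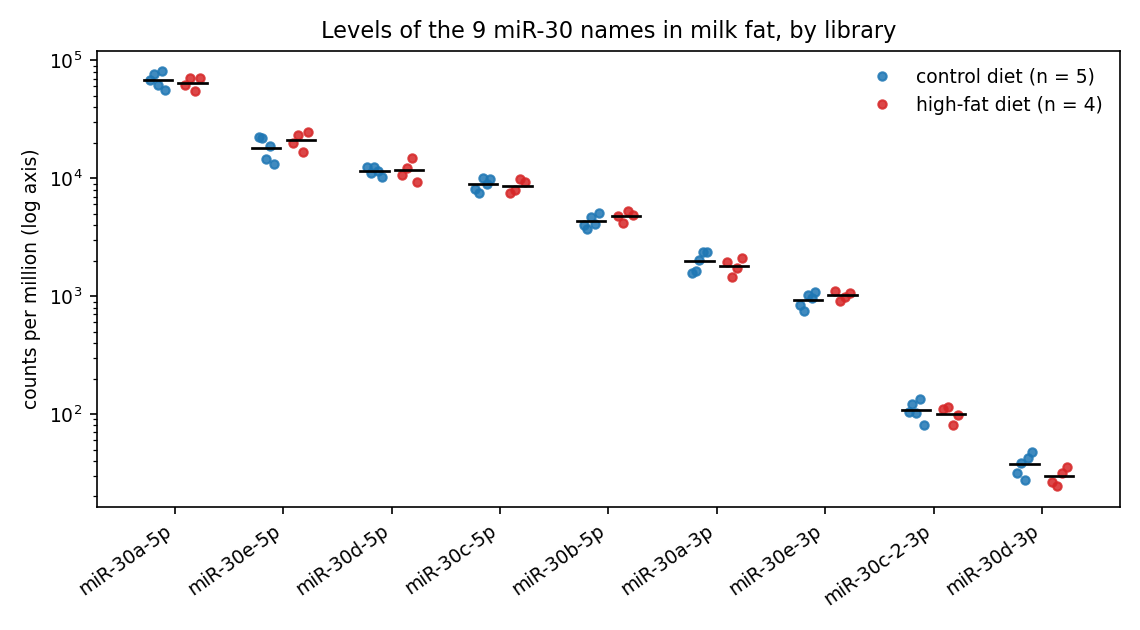
Levels of the 9 miR-30 names in CPM on a log axis, 1 point per library, control diet in blue (n = 5) and high-fat diet in red (n = 4), with black bars at the group means. The 9 names span from 68750 CPM for miR-30a-5p to 37.6 CPM for miR-30d-3p in control means, and the diets overlap for every name.

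The 3p arms were far lower, and no neighbours in their order (miR-30a-3p, miR-30e-3p, miR-30c-2-3p, miR-30d-3p) overlapped in CPM. miR-30a-3p, the partner strand of miR-30a-5p, measured 1579, 1634, 2043, 2355 and 2387 CPM in control and 1947, 1449, 1728 and 2120 CPM in high-fat milk; its log2 fold change was -0.14 ± 0.18. miR-30e-3p measured 844, 752, 1032, 960 and 1080 CPM in control and 1100, 918, 990 and 1064 CPM in high-fat milk, and its log2 fold change was 0.13 ± 0.15. Together they made up 95.1% ± 1.06 and 95.5% ± 0.732 of the 3p counts of the family. miR-30c-2-3p measured 104, 121, 103, 133 and 80.8 CPM in control and 110, 114, 80.4 and 98.7 CPM in high-fat milk, with a log2 fold change of -0.10 ± 0.19. miR-30d-3p rested on 40 to 93 counts per library and ran from 27.5 to 47.5 CPM (median 38.4) in control and from 24.5 to 35.8 CPM (median 29.1) in high-fat milk. Its log2 fold change, -0.31 ± 0.24, was the largest in size among the 9 members and had a limma-voom adjusted p of 0.649, and its interval ran from 0.556-fold to 1.17-fold. The 3p arms thus overlapped between the diets too.

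At an adjusted p of 0.05 limma-voom called 0 of the 9 members and 0% of the 312 tested names. No member had an unadjusted p below 0.05, against 32 of the 312 names, and the smallest among the members was 0.231. With limma-trend in place of voom 2 names were called, miR-3470a and miR-3470b, and no member. The CPM ranges of the diets were separate for 0 of 9 members and for 4.81% of all names. Of the 9 fold changes 4 were above 0, and their median was -0.04 on the log2 scale, beside 0.00 for all names. The median size of the log2 fold change was 0.13 for the members and 0.28 for all names. For every 5p member the interval excluded a 2-fold change in either direction. Without high-fat libraries 1 and 3, 0 members passed and the members' median was 0.0027.

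**Figure D2:**
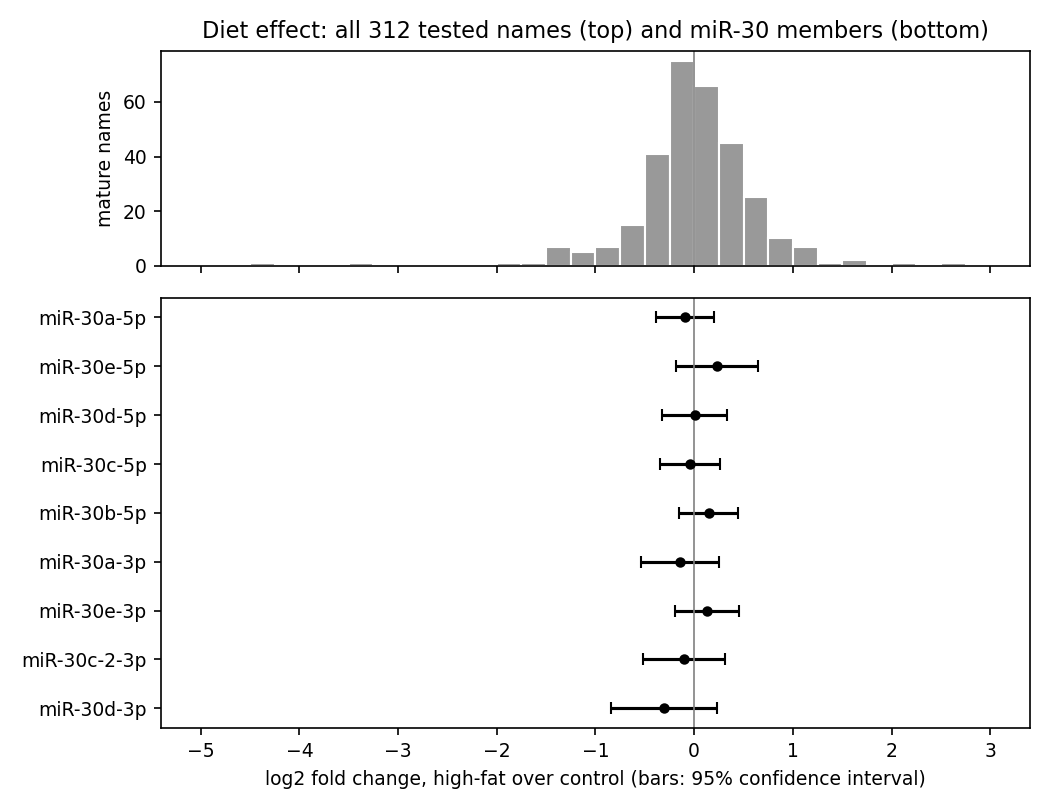
Log2 fold changes of high-fat over control milk. The upper panel counts all 312 tested names, and the lower panel gives each miR-30 member with its 95% confidence interval. The members lie between -0.31 and 0.23, and every interval covers 0.

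The level of each miR-30 name varied less from dam to dam than that of most of the 312 names. The SD of log2 CPM between dams of one diet was 0.17 to 0.31 for the 5p members and 0.18 to 0.29 for the 3p members, beside a median of 0.43 over all 312 names and 0.27 over the 50 most abundant. miR-30b-5p was the steadiest member, with a smaller SD in 5.13% of all names, and miR-30e-5p the most variable, with a smaller SD in 30.8%. Abundant names have less counting error, so the 50 most abundant are the closer comparison. There miR-30b-5p had the 7th, miR-30c-5p the 10th, miR-30a-5p the 11th, miR-30d-5p the 15th and miR-30e-5p the 32nd smallest SD. miR-30a-3p, the only 3p member among these 50, had the 25th.

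Lists of other miRNAs for the roles miR-30 is known for were set beside it. In a list of 8 epithelial miRNAs none passed, 4 fold changes were above 0 and the median log2 fold change was 0.04. The smallest p values belonged to miR-141-3p (0.77 ± 0.21) and miR-200a-3p (0.24 ± 0.11), which repress Zeb1 and Zeb2, with limma-voom adjusted p of 0.233 and 0.441. In a list of 11 miRNAs tied to fat-cell formation none passed, 5 were above 0 and the median was -0.05. Here miR-378a-3p, made from an intron of Ppargc1b, measured -0.24 ± 0.11 and miR-193b-3p -0.31 ± 0.19 on the log2 scale, with limma-voom adjusted p of 0.535 and 0.649. Since limma-voom called 0 of the 312 tested names, no list could hold a call, and the lack of one does not set these lists apart. Among all 312 names, 158 fold changes were above 0.

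For each hairpin, arm balance was expressed as log2 of its 5p count over its 3p count. All 6 miR-30 hairpins favoured the 5p arm in all 9 libraries, and all 6 did so more than the median of 101 hairpins, whose log2 ratio was 1.84. The order ran from mir-30e at 4.31 (19.8 reads of 5p for each of 3p), mir-30a at 5.13 (35.1) and mir-30c-2 at 6.39 (83.9) to mir-30b at 7.77 (218) and mir-30d at 8.43 (344), as means over the 9 libraries. mir-30c-1 had 1 to 18 counts of its 3p arm per library and a mean of 11.12, so its value is imprecise. For mir-30c-1 and mir-30c-2 the 5p count is the shared miR-30c-5p, so both ratios are upper values for the single hairpin. Of the miR-30c 3p counts, miR-30c-2-3p held 96.2% ± 1.60 in control and 94.8% ± 3.79 in high-fat milk.

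The arm ratio of mir-30a was 5.44, 5.54, 4.93, 5.09 and 4.55 in the control dams, listed from 1 to 5, and 4.98, 5.60, 4.99 and 5.06 in the high-fat dams, listed from 1 to 4. That of mir-30e was 4.73, 4.86, 3.82, 4.30 and 3.61 in control and 4.19, 4.66, 4.07 and 4.53 in high-fat milk. In both hairpins control libraries 1 and 2 and high-fat library 2 were the 3 highest and control library 5 the lowest. The diets overlapped for all 6 hairpins. None of the 6 passed limma at an adjusted p of 0.05 over the 101 hairpins, as was so for 0% of them. The differences between diets in log2 ratio were 0.04 ± 0.28 (SE) for mir-30a, 0.10 ± 0.31 for mir-30e, -0.03 ± 0.27 for mir-30b, 0.34 ± 0.30 for mir-30d, 0.06 ± 0.29 for mir-30c-2 and 0.34 ± 0.82 for mir-30c-1, and the smallest adjusted p by limma was 0.743, for mir-30d. Over all 101 hairpins 7 had an unadjusted p below 0.05, and none of these was a miR-30 hairpin. Without high-fat libraries 1 and 3 the differences were 0.22 for mir-30a, 0.33 for mir-30e, -0.38 for mir-30b, 0.21 for mir-30d and -0.02 for mir-30c-2, and the smallest adjusted p by limma was 0.561, for mir-30b. The mir-30d difference ran from 0.21 (without control 5) to 0.54 (without high-fat 4) with single libraries left out.

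**Figure D3:**
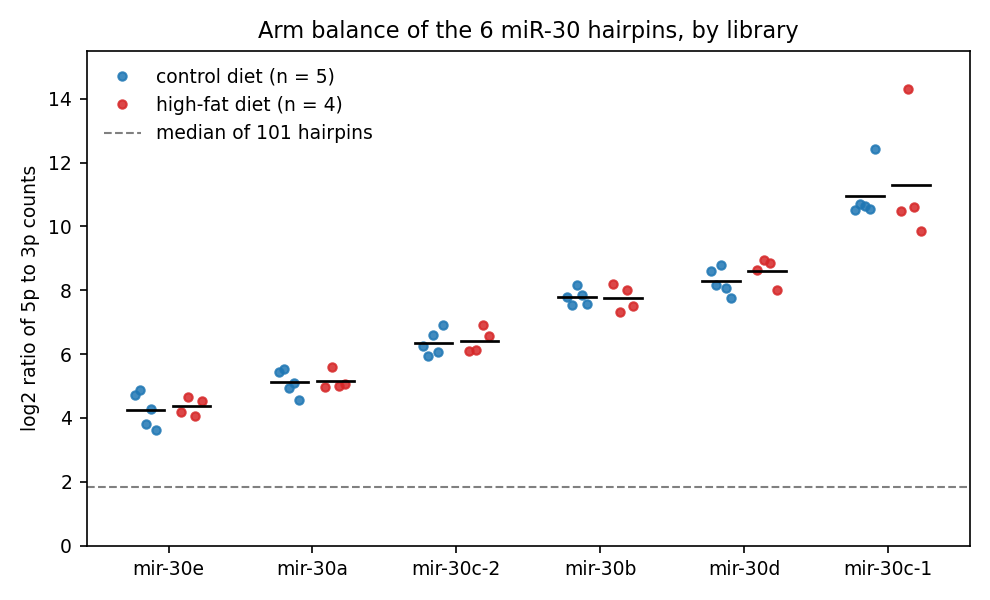
Log2 ratio of 5p to 3p counts in the 6 miR-30 hairpins, 1 point per library, with black bars at the means of the control (n = 5, blue) and high-fat (n = 4, red) libraries. Every point lies above the dashed line, the median of 101 hairpins at 1.84, and the 2 highest points of mir-30c-1 each rest on 1 count of its 3p arm.

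Members were then compared in how they moved together from dam to dam. Likeness was measured as the SD, over the 9 libraries, of the log2 ratio of 2 names, so that a small SD means levels that rise and fall in step. For miR-30a-5p, the steadiest ratio to any of the 135 other names of at least 100 CPM was to miR-30c-2-3p, the 3p arm of the neighbouring hairpin on chromosome 1, with an SD of 0.11. Counting error of both names alone gives an SD of 0.11. The log2 ratio was 9.36, 9.29, 9.24, 9.23 and 9.43 in the control libraries and 9.12, 9.26, 9.41 and 9.48 in the high-fat libraries. miR-30c-2-3p remained the closest name in 8 of 9 fits that left out 1 library, and came second in the other. The median SD of a ratio to miR-30a-5p was 0.38, and the ratio to its own partner strand, miR-30a-3p, had an SD of 0.34.

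The other neighbours were compared by their 5p arms and did not keep such a ratio. By 5p arms the chromosome 1 neighbours did not either: miR-30a-5p to miR-30c-5p had an SD of 0.31, 43rd of 135 by likeness to miR-30a-5p. miR-30e-5p and miR-30c-5p, whose hairpins Mir30e and Mir30c-1 both lie in introns of Nfyc, had a log2 ratio of 1.48, 1.55, 0.54, 1.07 and 0.42 in control and 1.41, 1.54, 0.77 and 1.40 in high-fat milk, an SD of 0.45 that ranked 70th of the 135 names by likeness to miR-30e-5p. Reads of miR-30c-5p from Mir30c-1 and Mir30c-2 are pooled in this ratio and in that of miR-30a-5p to miR-30c-5p. miR-30d-5p and miR-30b-5p from chromosome 15 had an SD of 0.26, and miR-30b-5p ranked 29th among the names by likeness to miR-30d-5p (25th to 46th with single libraries left out). miR-30b-5p was closest to miR-30e-3p (SD 0.10, first in 8 of 9 fits without 1 library) and to miR-30c-5p (SD 0.14), which are encoded elsewhere. No sequence was at hand for miR-30b-5p, and the part of reads assigned to the wrong name in these likenesses was not tested. miR-30c-5p in turn was closest to miR-30b-5p, but that rank moved between first and 5th when single libraries were left out, and was first in 1 of the 9. miR-30e-5p was closer to miR-30a-5p (SD 0.24, 7th of 135) than to its partner strand miR-30e-3p (SD 0.43, 62nd). With single libraries left out miR-30a-5p ranked 6th to 12th. miR-30a-5p and miR-30e-5p differ by 1 base, and the part of reads assigned to the wrong name in their likeness was not tested.

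Of the 9 names, 6 are described here in 2 sets, drawn after the values were seen. miR-30a-5p, miR-30c-2-3p and miR-30e-5p were low together in control library 5 and high-fat library 3, and miR-30e-5p also in control library 3. In those same 2 libraries miR-30b-5p, miR-30c-5p and miR-30e-3p were above their own means, though miR-30e-3p by only 0.04 in high-fat library 3. Control library 5 had the fewest counts, and high-fat library 3 the most erythrocyte and muscle markers, and their part in this pattern was not tested. miR-30a-5p and miR-30e-5p differ by 1 base, and the part of reads assigned to the wrong name was not tested either. miR-30a-3p shared neither pattern, at 0.34 from its mean log2 CPM in control library 5 and -0.13 in high-fat library 3. miR-30d-5p deviated from its mean log2 CPM by 0.37 in high-fat library 3 and by -0.31 in high-fat library 4.

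**Figure D4:**
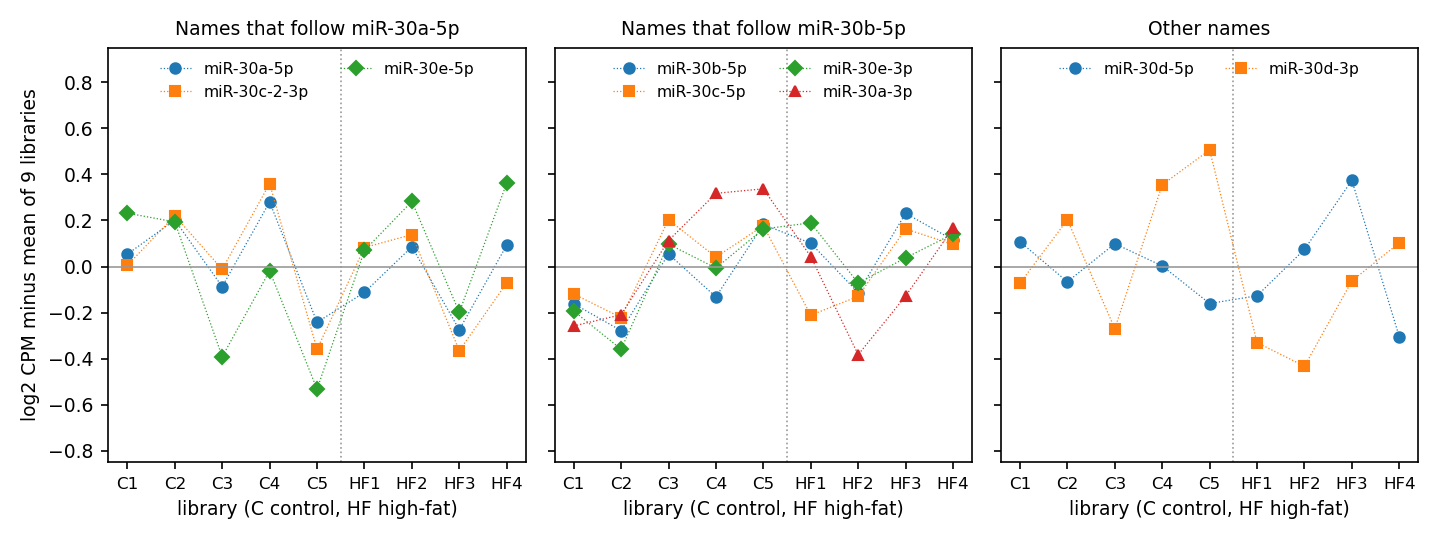
Log2 CPM of each miR-30 name in each library minus its own mean over the 9 libraries, with control libraries C1 to C5 and high-fat libraries HF1 to HF4; dotted lines only join the points of a name, since libraries have no order. The left panel holds miR-30a-5p, miR-30c-2-3p and miR-30e-5p, which are low in C5 and HF3, the middle panel miR-30b-5p, miR-30c-5p, miR-30e-3p and miR-30a-3p, and the right panel the 2 arms of mir-30d. miR-30a-3p is drawn in the middle panel but does not follow miR-30b-5p in HF3, where they lie at -0.13 and 0.23.

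Ratios between members were also compared between the diets, as values with no test, and the pairs described were chosen after their values were seen. The log2 ratio of miR-30a-5p to miR-30e-5p was 1.62, 1.80, 2.10, 2.09 and 2.08 in the control libraries, a mean of 1.94 ± 0.22 (SD, n = 5). In the high-fat libraries it was 1.61, 1.60, 1.72 and 1.52, a mean of 1.61 ± 0.08 (SD, n = 4), and 3 of the 4 lay below every control. The 3p arms of the same hairpins had ratios of 0.90, 1.12, 0.98, 1.29 and 1.14 in control and 0.82, 0.66, 0.80 and 0.99 in high-fat milk, and again 3 of 4 high-fat libraries lay below every control. The means were 1.09 ± 0.15 and 0.82 ± 0.14. The high-fat minus control differences in the log2 ratio were -0.33 (5p) and -0.27 (3p), and -0.38 and -0.26 without high-fat libraries 1 and 3. At least 3 of 4 high-fat libraries lay on 1 side of every control for 4 of the 36 pairs of members and for 20.4% of all 9180 pairs of names of at least 100 CPM, so this pattern was no more frequent among the members than the background. The diets overlapped in both, the arms of a hairpin share their library and their precursor, and each pair of names differs by 1 base, so these are not independent measurements. Of the 36 pairs of members, 1 had separate ranges, miR-30c-5p to miR-30b-5p, at 0.96 to 1.14 in control and 0.65 to 0.95 in high-fat milk. Its ranges ended at 0.957 (control 5) and 0.947 (high-fat 2), closer than the SD of 0.020 that counting error alone gives. Separate ranges were found for 4.39% of the 9180 pairs, so the count among the members was near the background. The 36 pairs include those with miR-30d-3p, whose mean of 34.1 CPM lies below the 100 CPM required for the 9180 pairs. miR-30d-3p was in none of the pairs counted here.

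**Figure D5:**
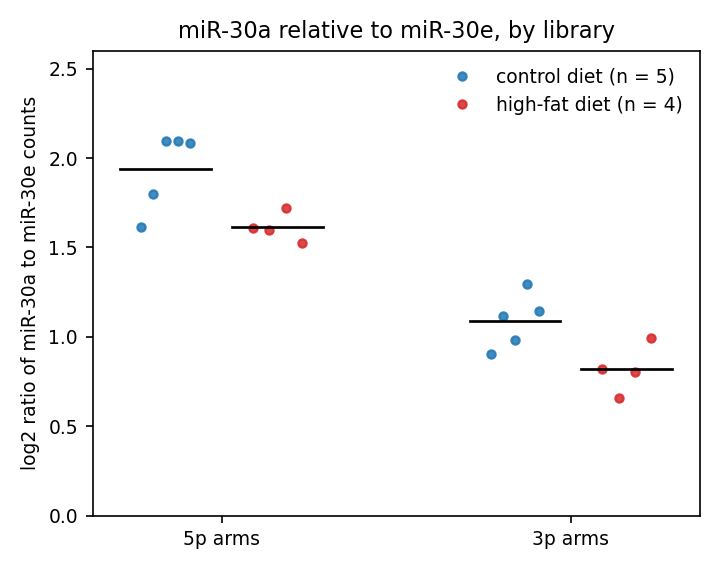
Log2 ratio of miR-30a to miR-30e counts for the 5p and the 3p arms, 1 point per library, with black bars at the means of control (n = 5, blue) and high-fat (n = 4, red) libraries. In both arms 3 of 4 high-fat points lie below all 5 control points, and the ranges overlap.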

How the data were processed

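The deposited table holds whole-number read counts for 2059 pairs of precursor and mature miRNA, 1 column per dam, written with comma separators in 833 cells. The tools and builds in the submitters' processing notes are cutadapt 1.9.1 and GRCm38. Aligner, counting rule and handling of the kit's random bases: not given in the sources used here. Counts are treated as reads. Here the highest row of each mature name was kept in each library. Names with 10 counts, scaled to the median library (5.25 CPM), in 4 or more libraries, and 15 in total, were tested. Library sizes were scaled by trimmed means of M values (30% and 5% trims). The separators were removed before the fit. limma-voom (limma 3.58.1, R 4.3.3) was used, two-sided, with diet as the only term, after a check on simulated data. Benjamini-Hochberg adjustment ran over 312 names. Arm ratios, with 0.5 counts added, were fitted by limma over 101 hairpins. Intervals cover 95%, and Wilson intervals counting error only. Members, lists and the rule for named miRNAs (all members, the other arms of their hairpins, the 3 closest names outside the family per 5p member, and the 2 smallest p values per list) were chosen with earlier results of these data known. Alternatives covered scaling, filters, summed rows, merged names, weights, a replicate block and libraries left out. Between libraries of 1 diet chi-square per degree of freedom was 50.2 or more, so none repeated another.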

Additional observations from a re-analysis of the deposited data

Results flagged for a closer look

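Among 52 groups of values, 1 diet each, 4 held a library that stood far off, where about 1 in 20 groups, or 2.6, is due by chance. The share of the 9 miR-30 names was 10.2% of high-fat library 3 and 11.7% to 11.8% of the other high-fat libraries. The 5p to 3p log2 ratio of mir-30a was 5.60 in high-fat library 2 and 4.98 to 5.06 in the other high-fat libraries. The 5p to 3p log2 ratio of mir-30c-1 was 12.4 in control library 5, beside 10.5 to 10.7 in the other controls, and 14.3 in high-fat library 2, beside 9.86 to 10.6 in the other high-fat libraries. In both of these libraries the 3p arm of mir-30c-1 had 1 count.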

How the results depend on the processing

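No miR-30 member and no miR-30 hairpin was called under any alternative run. The number of names called over the whole table was 4 with no filter on low counts, 2 by limma-trend, 2 with a quality weight per library and 3 with the replicate block, and ranged from 0 to 4 when single libraries were left out, with 4 without control library 5. The numbers do not pair the dams, which are separate animals, and the deviations of same-numbered libraries correlated at 0.06, -0.08, 0.19 and -0.13; 4 names were called in the 8 libraries of the block fit without the block. With summed rows the family share in high-fat milk was 10.4%, against 11.3% with the highest row. The control share moved by less than its SD of 1.12 under summed rows. The 10.4% and 11.3% come from the same high-fat libraries under different settings, so the step between them does not compare the diets. With miR-146b-5p and miR-148a-3p left out of the total the share was 17.4% (control) and 17.2% (high-fat). Fold changes near 0 changed sign without being called. miR-30d-5p measured -0.0114 on the log2 scale with median-of-ratios factors, -0.0032 with no filter, -0.028 with a filter of 100 counts, -0.0407 with summed rows, -0.0777 with quality weights, -0.0254 with the replicate block and -0.10 without high-fat libraries 1 and 3. It ranged from -0.113 to 0.0613 with single libraries left out, miR-30c-5p from -0.122 to 0.0309 and miR-30c-2-3p from -0.24 to 0.00053. Without high-fat libraries 1 and 3, miR-30a-5p measured 0.0538 and miR-30c-2-3p 0.0027. With nearly identical names merged, miR-30a-5p, miR-30d-5p and miR-30e-5p together measured -0.0631 and miR-30a-3p with miR-30e-3p -0.0965, opposite in sign to miR-30e-5p and miR-30e-3p alone. Differences in arm ratio were 0.0575 for mir-30b with 5 counts added, -0.0592 for mir-30a and -0.0038 for mir-30e with quality weights, -0.0979 (mir-30a) and -0.0642 (mir-30e) with the replicate block, and -0.0212 for mir-30c-2 without high-fat libraries 1 and 3. With single libraries left out they ranged from -0.106 to 0.150 for mir-30a, -0.179 to 0.116 for mir-30b, -0.656 to 0.823 for mir-30c-1, -0.102 to 0.203 for mir-30c-2, -0.0642 to 0.248 for mir-30e and 0.208 to 0.540 for mir-30d. The cause of these changes was not tested. The ratio of miR-30c-5p to miR-30b-5p, looked at after its values were seen, differed between diets by -0.19, and by -0.10 without high-fat libraries 1 and 3. The miR-30a to miR-30e ratios were chosen in the same way. Low depth limits mir-30c-1, with 1 to 18 counts of its 3p arm per library, mir-30b (22 to 98) and mir-30d (40 to 93).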

Other observations

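Outside the family, the names whose log2 ratio to a 5p member was steadiest over the 9 libraries were found among names of at least 100 CPM. For miR-30a-5p these were let-7i-5p (SD 0.16), miR-7a-5p (0.17) and miR-101b-3p (0.19), and for miR-30e-5p miR-210-3p (0.15), miR-101a-3p (0.15) and miR-101b-3p (0.20). miR-30b-5p was closest to miR-425-5p (0.16), miR-26a-5p (0.16) and miR-200b-5p (0.18), and miR-30c-5p to let-7e-5p (0.14), miR-200b-5p (0.15) and miR-27a-3p (0.16). miR-30d-5p was closest to miR-27a-3p (0.14), miR-146b-5p (0.16) and miR-423-3p (0.18). miR-101b-3p was thus shared by miR-30a-5p and miR-30e-5p, miR-200b-5p by miR-30b-5p and miR-30c-5p, and miR-27a-3p by miR-30c-5p and miR-30d-5p.

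miR-384-5p, the one other name in the RefSeq table with the seed of the printed 5p members, had 0 counts in all 9 libraries, and a limit of 3 counts for a count of 0 is 0.000358% of the smallest library. miR-30f, read from the strand opposite Mir30e, has the seed UAAACAU and had 7 counts over the 9 libraries. miR-30b-3p, the 3p arm of mir-30b, had 376 counts over the 9 libraries and a log2 fold change of 0.25 ± 0.26 with a limma-voom adjusted p of 0.720. miR-30c-1-3p, with 85 counts in all, had a log2 fold change of -0.93 ± 0.98, also with a limma-voom adjusted p of 0.720.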
